A study of Mus musculus with 15 samples.

Results

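The expression of 10 genes that hold and feed blood stem and progenitor cells was examined in cultured bone marrow mesenchymal stromal cells (MSCs) with and without the taurine transporter TauT, which *Slc6a6* encodes. The genes were taken by symbol from the 56832 genes of the count table. All 10 passed the filter on low counts, among 17204 genes that did. They are *Cxcl12*, *Kitl*, *Angpt1*, *Il7*, *Csf1* and *Hgf*, which encode secreted factors, *Vcam1* and *Lepr*, which encode surface proteins, and *Foxc1* and *Ebf3*, which encode transcription factors. MSCs came from 16 week old mice that were wild type (TauT+/+) or carried a global TauT knockout (TauT-/-), so the knockout was not limited to stroma. They were grown in MEM alpha with serum, and the labels name no further treatment. There were 4 TauT+/+ and 4 TauT-/- libraries labelled male, and 3 TauT+/+ and 4 TauT-/- libraries labelled female. The labels name these as separate samples but not the mice behind them, so p-values measure the spread between these libraries.

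In bone marrow, perivascular stromal cells make up much of the niche of hematopoietic stem cells. CXCL12 and stem cell factor, the product of *Kitl*, retain and maintain these cells, VCAM1 holds them through an integrin, and FOXC1 and EBF3 maintain the stromal cells that produce the factors. The leptin receptor is widely used to mark such stroma in vivo.

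Total counts ranged from 69764291 to 101575071 in male-labelled libraries and from 12761107 to 20781070 in female-labelled libraries, so depth and sex label cannot be told apart, but each depth held both genotypes. *Slc6a6* ranged from 592 to 2591 CPM (read counts relative to library size, as scaled by edgeR) in TauT+/+ and from 401 to 1521 CPM in TauT-/- libraries, which overlapped. The part of the gene that was deleted is not given in the sources used here. Libraries are therefore named by their labels. In 3 libraries the sex-linked genes Xist and Ddx3y were at odds with the labelled sex, namely TauT+/+ male 1, TauT-/- male 1 and TauT+/+ female 3. Moreover, TauT+/+ male 1 and TauT+/+ female 1 differed from each other by a spread of 0.108 (scaled median absolute deviation of the log2 ratio over 9102 genes), and TauT-/- male 1 and TauT-/- female 1 by 0.0976, against at least 0.253 for every other pair of libraries. Both values exceeded the counting error (0.0575 and 0.0547), and no label ties the libraries to each other. Results are given for 15 libraries. For the members, edgeR fits are also given for 13 libraries, with 1 of each near-identical pair left out. Correlations used 13 libraries only. DESeq2, voom, the macrophage covariate and the list calls used both libraries of each pair. These are not shown to be independent.

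Sequence just upstream of the start site is shown for the most abundant member and for 2 further members, *Kitl* and *Hgf*, in which a searched motif was found. The RefSeq promoter table (mouse build GRCm38.p6, an earlier build than that of the counts) held 9 promoters for 7 of the 10 genes. Each sequence below has 250 bases, ends at the base before the start site and reads along the plus strand, on which all 3 genes lie. Capitals mark a motif. *Cxcl12* is at chr6:117168285-117168534, *Kitl* at chr10:100015571-100015820 and the first of the *Hgf* promoters at chr5:16553245-16553494.
Cxcl12: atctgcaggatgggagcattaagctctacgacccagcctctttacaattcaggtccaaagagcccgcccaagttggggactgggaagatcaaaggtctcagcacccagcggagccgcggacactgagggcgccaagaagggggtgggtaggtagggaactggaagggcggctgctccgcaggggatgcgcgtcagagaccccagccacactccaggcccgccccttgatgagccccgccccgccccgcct
Kitl: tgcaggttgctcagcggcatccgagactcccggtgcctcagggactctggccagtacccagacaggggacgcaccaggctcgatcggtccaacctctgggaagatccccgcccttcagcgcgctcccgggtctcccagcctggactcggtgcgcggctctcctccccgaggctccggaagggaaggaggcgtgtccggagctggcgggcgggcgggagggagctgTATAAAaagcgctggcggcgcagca
Hgf: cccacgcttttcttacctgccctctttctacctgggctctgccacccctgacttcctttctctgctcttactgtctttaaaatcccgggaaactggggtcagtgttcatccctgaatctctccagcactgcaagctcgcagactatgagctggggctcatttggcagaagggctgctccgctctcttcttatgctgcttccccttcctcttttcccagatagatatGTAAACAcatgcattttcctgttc
On both strands, 3 motifs were searched, the EBF core (TCCC and GGGA with NN, any bases, between them), the forkhead core GTAAACA and the TATA box TATAAA, none of which contains another. The *Kitl* promoter held TATAAA with its first base 25 bases before the start, and the first *Hgf* promoter held GTAAACA at 24 bases before it. Of 32851 mouse promoters of this length, 12.4% held the TATA box, 3.17% the forkhead core and 0.779% the EBF core. The *Cxcl12* promoter and the other promoters of the 7 genes held no match to these letters.

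Levels were first compared between the members per length, as CPM per kilobase of annotated exon. *Cxcl12* had the highest median level in TauT+/+ MSCs, at 1433 CPM per kilobase, followed by *Csf1* at 220, *Vcam1* at 33.8 and *Kitl* at 25.1. *Foxc1* had 19.6 CPM per kilobase, *Hgf* 9.90, *Angpt1* 7.68 and *Ebf3* 5.52. *Il7* and *Lepr* were far lower, with medians of 0.553 and 0.103 CPM per kilobase. In this order the ranges over the 7 TauT+/+ libraries overlapped between neighbours, except between *Csf1* and *Vcam1*, between *Ebf3* and *Il7*, and between *Il7* and *Lepr*.

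In TauT-/- MSCs the median of *Csf1* was highest, at 179 CPM per kilobase, and that of *Cxcl12* was 153. *Cxcl12* exceeded *Csf1* per length in 5 of 7 TauT+/+ and 4 of 8 TauT-/- libraries. *Foxc1* followed with 11.2 CPM per kilobase, *Vcam1* with 10.2, *Kitl* with 4.68, *Hgf* with 3.19, *Angpt1* with 3.0 and *Ebf3* with 2.42. *Il7* had 0.395 CPM per kilobase and *Lepr* 0.0719. In this order the ranges over the 8 TauT-/- libraries overlapped between all neighbours.

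**Figure D1:**
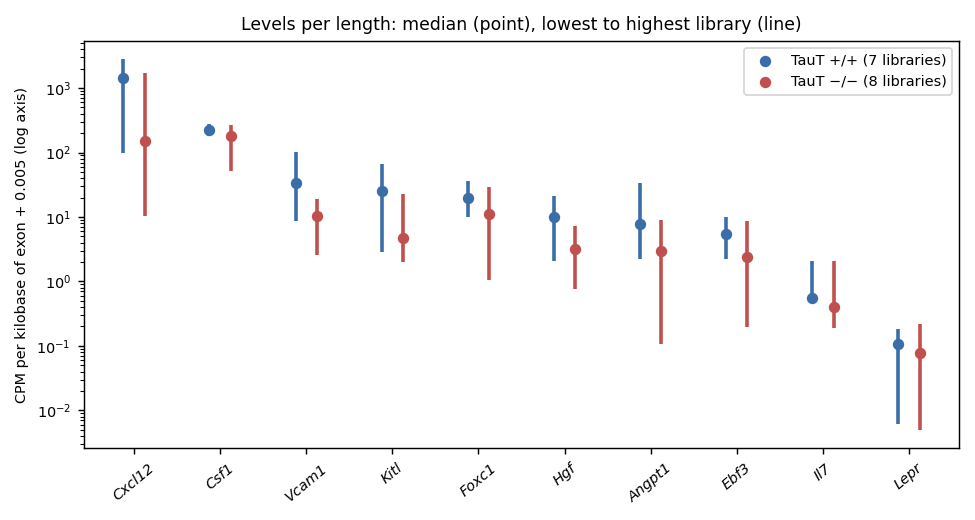
Levels of the 10 niche factor genes in CPM per kilobase of exon (with 0.005 added, log axis), in order of the TauT+/+ median, for 7 TauT+/+ (blue) and 8 TauT-/- (red) libraries. Points are medians and lines run from the lowest to the highest library. *Cxcl12* (median 1433) lies highest in TauT+/+ and *Lepr* lowest in both genotypes.

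The genotypes were then compared. The members' log2 fold changes (TauT-/- minus TauT+/+) were negative in 10 of 10 genes, with a median of -1.05, beside a median of -0.015 over all 17204 genes tested, of which 8888 were negative. No member passed the adjusted threshold of 0.05 in edgeR's quasi-likelihood test. The counts were 0 lower, where 0.750% of all genes were lower, and 0 higher, where 0.546% were higher. At an unadjusted p under 0.05, *Vcam1*, *Kitl* and *Hgf* were lower (3 of 10, background 13%) and 0 were higher (background 10.6%). DESeq2 called *Hgf* and *Vcam1* lower (2 of 10, background 6.31%) and 0 higher (background 5.28%). limma's voom with sample quality weights called *Vcam1* lower (1 of 10, background 4.12%) and 0 higher (background 3.55%). The DESeq2 and voom fits took in all 15 libraries, with both of each near-identical pair. In 13 libraries edgeR called 0 members lower in either version. In bulk RNA, fewer cells of a type and less RNA per cell cannot be told apart.

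*Vcam1* (chr3:115903598-115923355, GRCm39, minus strand) encodes the adhesion molecule that binds an integrin on blood progenitors. TauT+/+ male 1 to 4 had 312, 926, 77.0 and 157 CPM, and TauT+/+ female 1 to 3 had 304, 495 and 178 CPM. TauT-/- male 1 to 4 had 148, 172, 82.3 and 101 CPM, and TauT-/- female 1 to 4 had 138, 64.0, 38.4 and 23.2 CPM. All 8 TauT-/- libraries lay below the TauT+/+ median, and the genotypes overlapped through TauT+/+ male 3 and 4. In female-labelled libraries they did not overlap. The means were 350 ± 288 CPM (SD, n = 7) and 95.9 ± 53.6 CPM (SD, n = 8), 3.73-fold lower in TauT-/- by the fit.

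The log2 fold change of *Vcam1* was -1.90 (SE, the standard error, 0.50, 95% interval -2.97 to -0.83, edgeR adjusted p = 0.0646). The adjusted p was 0.00442 by DESeq2 and 0.0156 by voom. Without TauT+/+ male 3, the lowest of the TauT+/+ libraries, edgeR called *Vcam1* (adjusted p = 0.0207) and *Hgf* (adjusted p = 0.0494), beside a background of 4.88% lower. In 13 libraries the log2 fold change of *Vcam1* was -2.04 or -2.09 (edgeR adjusted p = 0.0960 and 0.111), depending on which library of each pair was kept.

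*Kitl* (chr10:99851492-99936278, plus strand, shown above with a TATA box) encodes stem cell factor, the ligand of the receptor KIT. Its level was 463, 557, 23.6 and 104 CPM in TauT+/+ male 1 to 4 and 431, 210 and 46.8 CPM in TauT+/+ female 1 to 3. It was 188, 47.8, 19.7 and 30.5 CPM in TauT-/- male 1 to 4 and 192, 51.9, 16.7 and 29.6 CPM in TauT-/- female 1 to 4. Of the TauT+/+ libraries 4 lay above every TauT-/- library, while TauT+/+ male 3 was among the lowest of all 15. The highest TauT-/- values were those of the near-identical male 1 and female 1. Means were 262 ± 219 CPM (SD, n = 7) and 72.1 ± 73.9 CPM (SD, n = 8). The fit gave a log2 fold change of -1.85 (SE 0.74, 95% interval -3.43 to -0.26, edgeR adjusted p = 0.154), or 3.59-fold lower. The adjusted p was 0.0573 by DESeq2 and 0.0742 by voom, so neither called *Kitl*. Its log2 fold change was -2.21 or -1.98 in 13 libraries.

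*Hgf* (chr5:16758041-16828178, plus strand, shown above with a forkhead core) encodes hepatocyte growth factor, the ligand of MET. TauT+/+ male 1 to 4 had 117, 229, 27.8 and 56.3 CPM, and TauT+/+ female 1 to 3 had 106, 124 and 21.8 CPM. TauT-/- male 1 to 4 had 42.4, 77.8, 36.6 and 14.7 CPM, and TauT-/- female 1 to 4 had 44.5, 31.5, 17.3 and 8.24 CPM. All 8 TauT-/- libraries were below the TauT+/+ median, and 4 of 7 TauT+/+ libraries were above every TauT-/- library. The log2 fold change was -1.51 (SE 0.51, 95% interval -2.60 to -0.42, edgeR adjusted p = 0.106, DESeq2 adjusted p = 0.0330), with means of 97.4 ± 71.6 CPM (SD, n = 7) and 34.1 ± 22.1 CPM (SD, n = 8). In 13 libraries it was -1.52 or -1.54. Gm43489 and Gm42975 overlap *Hgf* on its own strand, so the division of reads between them and *Hgf* is uncertain.

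*Cxcl12* (chr6:117144945-117158328, plus strand) encodes the chemokine that retains stem cells in the marrow through the receptor CXCR4. It was 23372, 20921, 835 and 2320 CPM in TauT+/+ male 1 to 4 and 23382, 11960 and 2050 CPM in TauT+/+ female 1 to 3. It was 14290, 947, 849 and 1611 CPM in TauT-/- male 1 to 4 and 13848, 3603, 262 and 86.5 CPM in TauT-/- female 1 to 4. The 15 libraries differed by up to 270-fold, and high and low values occurred in both genotypes. *Cxcl12* had more counts than any other gene in 4 of 7 TauT+/+ and 2 of 8 TauT-/- libraries, the latter being the near-identical male 1 and female 1. It took 2.35% of all counts in TauT+/+ female 1 and 0.00799% in TauT-/- female 4, where 2626 genes had more.

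Means of *Cxcl12* were 12120 ± 10454 CPM (SD, n = 7) and 4437 ± 6044 CPM (SD, n = 8), so the SD was close to the mean or above it. The log2 fold change was -1.45 (SE 1.03, 95% interval -3.65 to 0.74, edgeR adjusted p = 0.407), and its interval included 0. It was -2.13 or -1.80 in 13 libraries, -2.44 without the 3 libraries at odds with their labelled sex and -2.43 without TauT-/- male 1. None of these passed the threshold (edgeR adjusted p of 0.201 to 0.598 over the 15 fits that left out 1 library).

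*Angpt1* (chr15:42288058-42540417, minus strand) encodes angiopoietin-1, a ligand of the receptor TIE2. TauT+/+ male 1 to 4 had 63.5, 246, 29.5 and 25.7 CPM, and TauT+/+ female 1 to 3 had 59.2, 55.2 and 16.1 CPM. TauT-/- male 1 to 4 had 62.2, 37.7, 26.1 and 2.95 CPM, and TauT-/- female 1 to 4 had 63.8, 17.0, 5.77 and 0.73 CPM. A single library, TauT+/+ male 2, stood above the rest, and the 2 lowest were TauT-/- male 4 and TauT-/- female 4. The log2 fold change was -1.27 (SE 0.79, edgeR adjusted p = 0.344), and it was -0.65 without TauT+/+ male 2.

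*Csf1* (chr3:107648364-107667806, minus strand) encodes the growth factor of macrophages. It was the steadiest member, at 1258, 1051, 1640 and 1206 CPM in TauT+/+ male 1 to 4 and 1295, 1503 and 1480 CPM in TauT+/+ female 1 to 3. In TauT-/- male 1 to 4 it was 1287, 1599, 1154 and 916 CPM, and in TauT-/- female 1 to 4 it was 1255, 945, 872 and 306 CPM. The whole TauT+/+ range was 1.56-fold, and in female-labelled libraries every TauT-/- value was below every TauT+/+ value. That gap was narrow, with 1295 CPM in TauT+/+ female 1 and 1255 CPM in TauT-/- female 1. Their near-identical male 1 libraries had the reverse order, at 1258 and 1287 CPM. The difference was -0.38 on the log2 scale (SE 0.25, edgeR adjusted p = 0.371), and -0.24 without TauT-/- female 4, the lowest library.

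*Il7* (chr3:7635054-7678825, minus strand) encodes a cytokine needed by B cell progenitors. It was low, with 2.66, 8.95, 11.6 and 4.42 CPM in TauT+/+ male 1 to 4 and 2.64, 3.14 and 3.04 CPM in TauT+/+ female 1 to 3. It had 1.24, 2.46, 11.9 and 5.85 CPM in TauT-/- male 1 to 4 and 1.36, 9.31, 2.01 and 1.04 CPM in TauT-/- female 1 to 4. The highest value of each genotype was in male 3, a library that was low in *Cxcl12* and *Kitl* in both genotypes. Its log2 fold change of -0.10 (SE 0.55, 95% interval -1.28 to 1.08, edgeR adjusted p = 0.934) changed sign in some of the alternative fits.

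*Lepr* (chr4:101574601-101676237, plus strand), the marker of marrow perivascular stroma in vivo, was close to the limit of detection. TauT+/+ male 1 to 4 had 1.69, 0.32, 1.95 and 0.013 CPM, and TauT+/+ female 1 to 3 had 1.32, 1.15 and 0.51 CPM. The values in TauT-/- male 1 to 4 were 1.51, 0.34, 1.74 and 0.23 CPM, and in TauT-/- female 1 to 3 they were 1.26, 2.35 and 0.14 CPM. TauT-/- female 4 had 0 counts, which allows up to 0.156 CPM (3 counts, counting error only), and 3 libraries had 3 counts or fewer. The genotypes overlapped throughout, with a log2 fold change of -0.058 (SE 0.86, 95% interval -1.91 to 1.79, edgeR adjusted p = 0.977). The interval spans 3.75-fold lower to 3.46-fold higher, and differences within it cannot be told from none. Values also differed widely between libraries of the same genotype and sex label, such as TauT+/+ male 3 and 4.

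The transcription factors varied with *Cxcl12* over the libraries. *Foxc1* (chr13:31990616-31996459, plus strand) was 165, 212, 75.7 and 58.3 CPM in TauT+/+ male 1 to 4 and 192, 115 and 66.6 CPM in TauT+/+ female 1 to 3. It was 168, 63.4, 69.7 and 63.1 CPM in TauT-/- male 1 to 4 and 156, 68.1, 36.9 and 6.10 CPM in TauT-/- female 1 to 4. Only TauT-/- male 1 and female 1 reached the TauT+/+ median (115 CPM), and the other 6 TauT-/- libraries were at 69.7 CPM or lower. Gm11379 overlaps *Foxc1* on its own strand, which leaves the division of reads uncertain.

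*Ebf3* (chr7:136795402-136916218, minus strand) was 110, 63.4, 25.4 and 28.4 CPM in TauT+/+ male 1 to 4 and 115, 108 and 57.6 CPM in TauT+/+ female 1 to 3. It was 101, 28.1, 27.5 and 27.4 CPM in TauT-/- male 1 to 4 and 97.02, 33.7, 7.15 and 2.19 CPM in TauT-/- female 1 to 4. As for *Foxc1*, TauT-/- male 1 and female 1 stood high and TauT-/- female 4 lowest. The log2 fold changes were -0.68 (SE 0.51, edgeR adjusted p = 0.440) for *Foxc1* and -0.82 (SE 0.64, edgeR adjusted p = 0.452) for *Ebf3*.

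**Figure D2:**
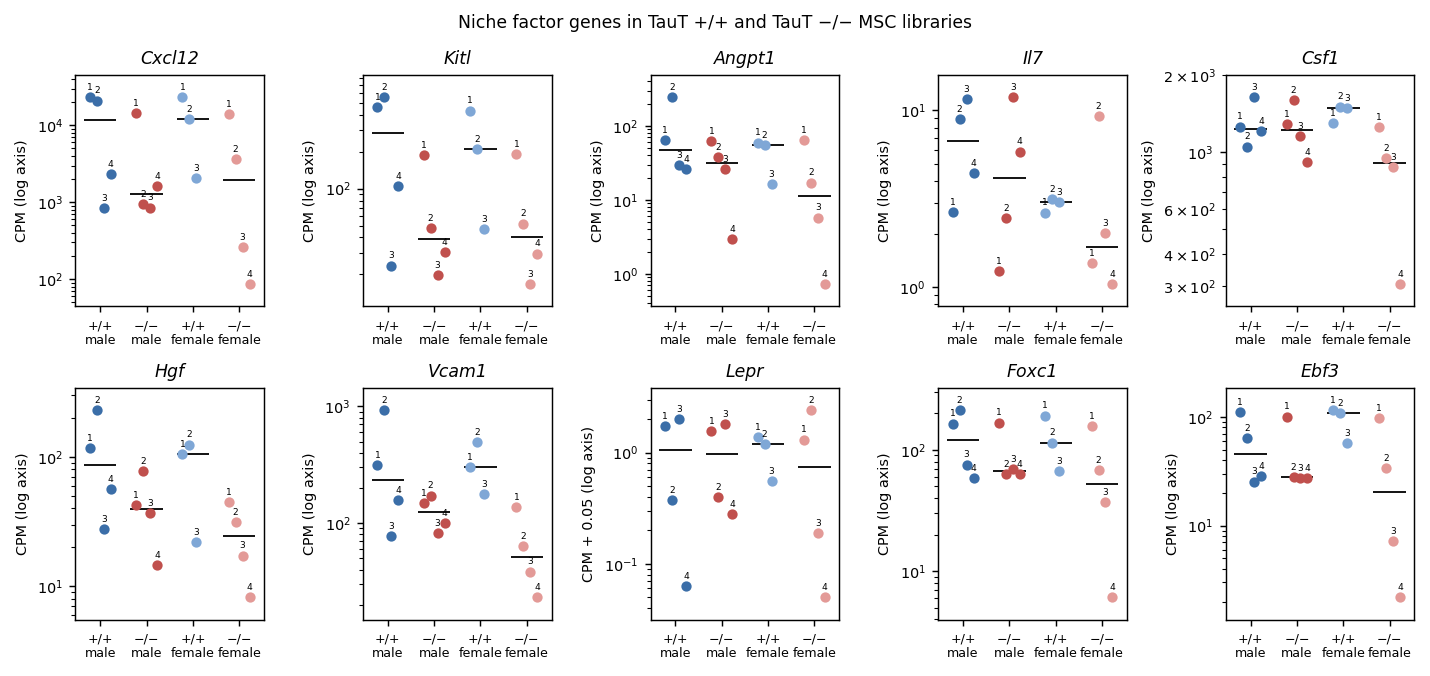
CPM of each niche factor gene in every library (log axes, with 0.05 added for *Lepr*), by genotype and sex label. Points are libraries, numbers are replicate numbers and lines are group medians. *Cxcl12*, *Foxc1* and *Ebf3* show TauT-/- male 1 and female 1 at TauT+/+ levels. *Vcam1* and, narrowly, *Csf1* show no overlap of genotypes in female-labelled libraries.

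The genotype was also compared within each sex label. In male-labelled libraries 0 members had TauT-/- values entirely below the TauT+/+ values (background 2.12%). In female-labelled libraries *Vcam1* and, narrowly, *Csf1* did (2 of 10, background 8.20%), and 0 did over all 15 libraries (background 0.436%). *Vcam1* had a log2 fold change of -1.55 (95% interval -3.05 to -0.049) in male-labelled and -2.31 (95% interval -3.91 to -0.70) in female-labelled libraries. edgeR called 0 members in either label, with the lowest adjusted p at 0.573 (male label) and 0.251 (female label). It called 0 of all 17204 genes in each label too, which leaves this result uninformative about the members. Members lower with p under 0.05 before adjustment numbered 1 (male label) and 2 (female label). The same threshold took in 777 and 1333 of all genes as lower. With voom, *Vcam1* was called in female-labelled libraries (1 of 10, background 0.157%).

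The difference of the genotype effects between the labels was tested directly. For *Vcam1* it was -0.76 (female minus male, log2, 95% interval -2.91 to 1.40) and for *Csf1* -0.70 (95% interval -1.75 to 0.35). In 15 libraries the lowest unadjusted p among the 10 members was 0.176, and every edgeR adjusted p was 1.00 when rounded. For this difference edgeR called 0 of all 17204 genes. These intervals were wide enough that a difference of several fold between the labels was not detectable. Near-identical libraries stand in both labels here. In 13 libraries the difference of *Csf1* was -0.65 with the female-labelled of each pair kept and -0.99 with the male-labelled kept (edgeR unadjusted p = 0.273 and 0.0777). Both versions called 0 members, and 0 of all 14360 and 17552 genes tested.

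**Figure D3:**
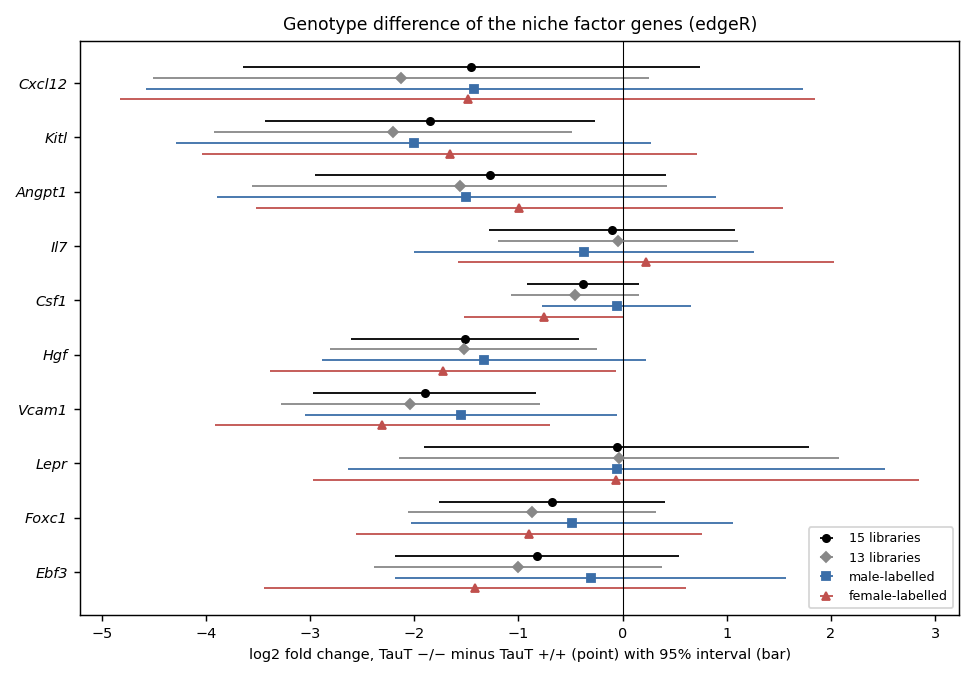
Log2 fold changes, TauT-/- minus TauT+/+, of the 10 niche factor genes (points) with 95% intervals (bars), from edgeR fits to 15 libraries, to 13 libraries with the female-labelled library of each near-identical pair kept, and within each sex label. The 15-library interval lies below 0 for *Vcam1* (-2.97 to -0.83), *Kitl* (-3.43 to -0.26) and *Hgf* (-2.60 to -0.42).

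Markers of other cells were examined next, since the study enriched MSCs by magnetic depletion of CD45+, Ter119+ and CD31+ cells or by flow sorting. Which of these was used for a library is not given in the sources used here. The macrophage list was present in every library. *Ptprc*, which encodes CD45, averaged 123 ± 52.5 CPM over TauT+/+ libraries (SD, n = 7) and 234 ± 87.6 CPM over TauT-/- libraries (SD, n = 8). The 22 macrophage markers summed to 1578 to 10834 CPM (median 9157) in TauT+/+ and 7463 to 26385 CPM (median 17456) in TauT-/- libraries. All 22 were tested, 21 had positive log2 fold changes (median 0.94), and *Cd68* and *Ctss* rose (edgeR adjusted p = 0.0445 and 0.0467, 2 of 22, background 0.546%). DESeq2 called 10 of the 22 higher, beside its background of 5.28%.

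The members are set beside this list at its extremes. In TauT-/- female 4, which had the highest macrophage sum (26385 CPM), 10 of 10 members were below the TauT+/+ median, by 3.64 log2 units at the median member. TauT+/+ male 2 had the lowest sum (1578 CPM) and the highest *Vcam1*, *Kitl*, *Angpt1*, *Hgf* and *Foxc1*. The near-identical TauT-/- male 1 and female 1 had the lowest sums of their genotype (7463 and 8114 CPM) and its highest *Cxcl12*, *Kitl*, *Angpt1*, *Foxc1* and *Ebf3*. The highest *Vcam1*, *Hgf* and *Csf1* of this genotype were in male 2 (sum 12514 CPM). Its highest *Il7* was in male 3 (sum 18275 CPM) and its highest *Lepr* in female 2 (sum 21659 CPM). The order did not hold throughout, since TauT+/+ male 4 had a low sum (5795 CPM) with 9 of 10 members below the TauT+/+ median.

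With the macrophage list as a covariate, the log2 fold changes of *Vcam1*, *Kitl* and *Hgf* were -1.07, -1.20 and -0.83, and those of *Angpt1* and *Foxc1* were -0.16 and -0.17. *Cxcl12* had -0.96, *Ebf3* -0.50 and *Csf1* -0.34. All 10 stayed negative and 0 passed the threshold (edgeR adjusted p of 0.481 for *Vcam1*). In this fit 0 of all 17204 genes passed, lower or higher, so the 0 is not particular to the members. The list itself was mostly higher in TauT-/- libraries, so this fit cannot fully separate it from genotype. The part of macrophages in the members' values was not tested beyond this.

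Stromal identity was present in all libraries. The stromal list (collagens I and III and surface markers, 10 genes) summed to 25053 to 35854 CPM in TauT+/+ and 7222 to 46858 CPM in TauT-/- libraries, with 8 of 10 negative (median -0.63). edgeR called 0 of them (background 0.750% lower and 0.546% higher). At an unadjusted p under 0.05, 3 were lower and 1 higher (background 13% and 10.6%). DESeq2 called 1 lower (background 6.31%). *Pdgfra*, a receptor of marrow stroma, had a log2 fold change of -1.45 and *Pdgfrb* of -0.59 (edgeR adjusted p = 0.108 for both).

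Lineage and non-stromal lists were described in the same way. Their counts are read against the shares of all genes. These were 0.750% lower and 0.546% higher for edgeR, and 13% and 10.6% at an unadjusted p under 0.05. For DESeq2 they were 6.31% and 5.28%. All 7 adipocyte markers had negative log2 fold changes (median -1.33), led by *Adipoq* at -4.22 and *Cfd* at -3.21 (edgeR adjusted p = 0.0734 and 0.0664). edgeR called 0 of the 7, 4 were lower at an unadjusted p under 0.05, and DESeq2 called 4 lower. The 6 tested osteoblast markers had a median of -0.42, with *Spp1* at 1.35 and *Runx2* at -0.41. Of these, edgeR called 0, with 1 lower and 1 higher at an unadjusted p under 0.05, and DESeq2 called 1 higher. Endothelial markers summed to 4.27 to 21.7 CPM in TauT+/+ and 10.6 to 164 CPM in TauT-/- libraries. Their defining genes *Pecam1*, which encodes CD31, and *Cdh5* averaged 1.16 and 0.37 CPM in TauT-/- libraries, while *Kdr* and *Flt1* had log2 fold changes of 2.14 and 3.11. edgeR called 0 of the 7 tested, 2 were higher at an unadjusted p under 0.05, and DESeq2 called 2 higher. Of 12 markers of other blood cells 2 could be tested, *S100a8* (log2 fold change 1.49) and *Itga2b* (-0.088), neither called by edgeR or DESeq2, and *Cd3e* was at 0 in every library.

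**Figure D4:**
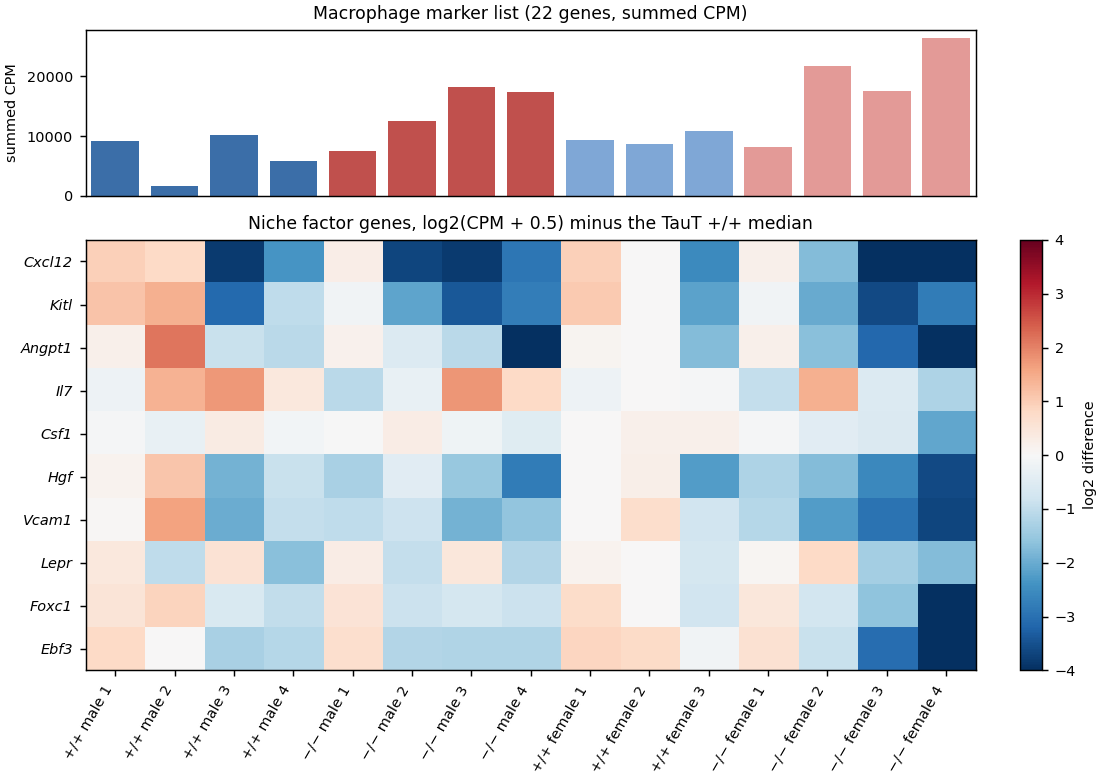
Upper part: CPM summed over the 22 macrophage markers in each of the 15 libraries (bars, coloured by group). Lower part: each niche factor gene as log2(CPM + 0.5) minus its TauT+/+ median (colour, held at -4 and 4). TauT-/- female 4 has the tallest bar and the lowest value of every member except *Kitl*, and TauT+/+ male 2 the shortest bar.

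Other genes of the niche were taken from 4 lists, whose calls are read against the backgrounds of 0.750% lower and 0.546% higher for edgeR and of 6.31% lower and 5.28% higher for DESeq2. At an unadjusted p under 0.05 in edgeR the backgrounds were 13% lower and 10.6% higher. Of 29 tested further niche factors, 23 had negative log2 fold changes (median -0.52), and edgeR called 1 lower and 0 higher (6 lower and 2 higher at an unadjusted p under 0.05). The 1 was *Esm1*, a secreted proteoglycan of vascular cells, with a log2 fold change of -5.03 (SE 0.97, edgeR adjusted p = 0.0337). It was at 3.78 to 237 CPM in TauT+/+ and 0.208 to 6.92 CPM in TauT-/- libraries, which overlapped. In 13 libraries edgeR called 0 of all genes lower in either version, so this call of *Esm1* was not found there. DESeq2 called 6 of the 29 lower and 2 higher. The 15 tested adhesion and contact genes had a median of -0.34, with *Dll1*, a Notch ligand, at -1.89 and *Alcam* at 1.41 (edgeR adjusted p = 0.0596 and 0.0651). edgeR called 0 of them, with 2 lower and 2 higher at an unadjusted p under 0.05, and DESeq2 called 1 lower and 2 higher. Among 24 identity genes of niche stroma 19 were negative (median -0.50). edgeR called 0, with 7 lower and 1 higher at an unadjusted p under 0.05, and DESeq2 called 2 lower.

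The receptors and ligand partners of the members had the opposite sign at their median, 0.74 over 10 tested genes. edgeR called 0, with 1 lower and 5 higher at an unadjusted p under 0.05, and DESeq2 called 1 lower and 3 higher. Not every partner had this sign, since *Angpt2*, a further ligand of TIE2, had a log2 fold change of -3.15 (edgeR adjusted p = 0.0969). *Cxcr4*, the receptor of CXCL12, had 3.87 ± 2.82 CPM (SD, n = 7) and 31.1 ± 31.7 CPM (SD, n = 8), which gave a log2 fold change of 2.91 (edgeR adjusted p = 0.0902). *Il7r*, the receptor of IL7, had 9.16 ± 4.79 and 69.2 ± 98.4 CPM (SD, same n), a log2 fold change of 2.44 (edgeR adjusted p = 0.0702). *Csf1r*, the receptor of CSF1 and also in the macrophage list, was at 505 ± 235 and 941 ± 450 CPM.

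The members varied together between libraries of 1 genotype. In 13 libraries, after genotype and sex label were removed from log2(CPM + 0.5), 43 of 45 pairs of members had a positive Pearson r, with a median of 0.63. After Benjamini-Hochberg adjustment over the 45 pairs, 25 passed 0.05 by Pearson's r, 24 by Spearman's rho and 22 by both (permutation tests, two-sided, 100000 permutations). The points share the depth and cell composition of each library, and the part of either was not tested. Pairs of other genes were not examined in this way, so these counts are not shown to be particular to the members.

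*Foxc1* and *Ebf3* had the highest Pearson r over the 13 libraries, though not the highest rho, with r = 0.93 (permutation p = 4.0e-05, adjusted p = 0.00045) and rho = 0.85 (permutation p = 0.0004, adjusted p = 0.00296). Without the 2 libraries farthest from the median of *Foxc1*, r was 0.77. *Cxcl12* was related to *Foxc1* with r = 0.91 (permutation p = 2.0e-05, adjusted p = 0.00045) and rho = 0.91 (permutation p = 6.0e-05, adjusted p = 0.0009), and r was 0.87 without the 2 farthest. *Cxcl12* and *Kitl* had r = 0.84 (permutation p = 0.00037, adjusted p = 0.00208) and rho = 0.90 (permutation p = 0.00011, adjusted p = 0.00108), and r was 0.90 without the 2 farthest.

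The factors *Angpt1* and *Hgf* had r = 0.89 (permutation p = 2.0e-05, adjusted p = 0.00045) and rho = 0.84 (permutation p = 0.00061, adjusted p = 0.00343), with r = 0.86 without the 2 farthest. *Hgf* and *Vcam1* had r = 0.86 (permutation p = 0.0002, adjusted p = 0.0015) and rho = 0.90 (permutation p = 6.0e-05, adjusted p = 0.0009), with r = 0.79 without the 2 farthest. For *Csf1* and *Cxcl12* the relation did not pass the test, with r = 0.47 (permutation p = 0.102, adjusted p = 0.153) and rho = 0.24 (permutation p = 0.437, adjusted p = 0.561), and r turned to -0.23 without the 2 farthest. With *Ebf3*, *Csf1* passed the permutation test by both (r = 0.74, adjusted p = 0.0147, rho = 0.63, adjusted p = 0.0481). *Foxc1* (r = 0.71) and *Angpt1* (r = 0.60) passed with *Csf1* by Pearson's r alone (adjusted p = 0.0339 and 0.0496), and *Lepr* by rho alone (adjusted p = 0.0481). *Kitl*, *Hgf*, *Vcam1* and *Il7* passed with *Csf1* by neither. *Il7* and *Kitl* had r = -0.18 (permutation p = 0.563, adjusted p = 0.658) and rho = -0.13 (permutation p = 0.670, adjusted p = 0.735), with r = -0.17 without the 2 farthest. *Il7* passed only with *Lepr*, and by Pearson's r alone (r = 0.71, permutation test adjusted p = 0.0130, rho = 0.61, adjusted p = 0.0543).

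**Figure D5:**
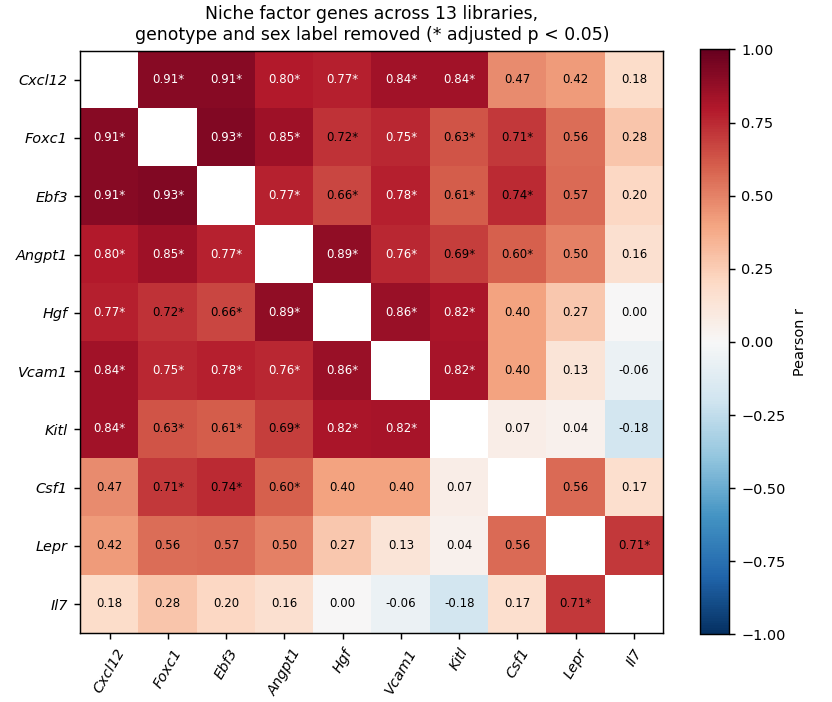
Pearson r between pairs of niche factor genes over 13 libraries, on log2(CPM + 0.5) with genotype and sex label removed (colour and number, stars for adjusted p under 0.05). The 7 genes from *Cxcl12* to *Kitl* form a block of positive values (0.61 to 0.93), and *Il7* stands apart from that block.

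The genes, other than members, whose levels were most like those of 3 members were found over the same 13 libraries. This was a description with no test. Genotype and sex label were not removed from the levels here. These r values therefore cannot be set beside those between members above. For *Cxcl12* the genes were *Gcdh* (r = 0.98), *Nek6* (r = 0.97) and *Dhx33* (r = 0.96). For *Kitl* they were *Wdr86* (r = 0.97), *Senp7* (r = 0.95) and *Man2a2* (r = 0.95), and for *Hgf* they were Gm43489 (r = 0.97), *Smim1* (r = 0.97) and *Dsel* (r = 0.95). Gm43489 is the gene that overlaps *Hgf* on its own strand, so these 2 values may share reads. *Wdr86* itself had a log2 fold change of -3.29 (edgeR adjusted p = 0.169).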

How the data were processed

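The authors deposited raw counts of reads on each gene. Per the labels and the paper, they made full-length cDNA by oligo-dT priming, filtered reads with fastp 0.23.1, mapped them with STAR 2.7.9a to GRCm39 with GENCODE M31, and counted them by strand with featureCounts (Subread 2.0.1). No strand-marking step is described, so genes antisense to *Angpt1*, *Il7*, *Csf1*, *Hgf*, *Vcam1* and *Ebf3* may not be separable.

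Counts were tested with edgeR 4.0.16 in R 4.3.3 (TMM, filterByExpr, quasi-likelihood test, sex label and genotype in the model) with Benjamini-Hochberg adjustment over 17204 genes and a threshold of 0.05. Standard errors are the log2 fold change divided by the root of F. DESeq2 1.42.0 and limma 3.58.1 (voom) were alternatives, as were other normalizations and filters, each sex label alone, a replicate block, a macrophage covariate, 13 libraries, and leaving out each library. Correlations used SciPy 1.17.1. The statistics were tested on simulated counts. Gene positions and exon lengths come from GENCODE M39 on GRCm39, and promoters from RefSeq. The members and lists were chosen with earlier results of these data known. All 10 members are named, and list genes are those past the threshold or else the 2 with the smallest p. *Ptprc*, *Pecam1*, *Cdh5*, *Cd3e*, *Csf1r* and *Angpt2* were named outside this rule, after their values were seen.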

Additional observations from a re-analysis of the deposited data

Results flagged for a closer look

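Within groups of 4 libraries, 30 sets of values were examined for a library whose gap to its neighbour made up most of the range, of which 1.5 are expected by chance. Male-labelled TauT-/- library 1 stood above the other 3 male-labelled TauT-/- libraries in *Foxc1* (168 CPM, gap over range 0.899) and in *Ebf3* (101 CPM, gap over range 0.980), beyond the 95% critical value of Dixon for 4 values. It is 1 of the 3 libraries at odds with their labelled sex and is near-identical to TauT-/- female 1. Without it the log2 fold change was -0.92 for *Foxc1* and -1.22 for *Ebf3*, in place of -0.68 and -0.82, and without TauT-/- female 1 it was -1.004 and -1.287. None of these was called by edgeR.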

How the results depend on the processing

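The number of members lower in TauT-/- was 0 in the reported edgeR fit, 2 with DESeq2, 1 with voom and 0 to 2 when 1 library was left out, the 2 (*Vcam1* and *Hgf*) without TauT+/+ male 3. In female-labelled libraries voom called 1. *Lepr* turned positive with voom (0.25), with a replicate block (0.26) and in 13 libraries with the male-labelled pair members kept (0.0021), and it ranged from -0.44 to 0.23 when 1 library was left out. It could not be tested under the filter of 10 counts in every library. *Il7* turned positive in female-labelled libraries alone (0.24) and ranged from -0.60 to 0.11 when 1 library was left out. The other 8 members kept a negative log2 fold change in all 14 other settings and all 15 fits without 1 library. Same-numbered libraries of the genotypes correlated at -0.023 to 0.64 in their deviations over 7 pairs, and 11 of 14 libraries correlated best with their own number, a hint from the data and not the design. With the replicate number as a block edgeR called 0 members. At an unadjusted p under 0.05 there were 6 members in place of 3, beside 4653 of all 17204 genes in place of 4066. The 6 included *Cxcl12* (-1.496, 95% interval -2.76 to -0.23), *Angpt1* and *Foxc1*, whose intervals then excluded 0. Male 1 and female 1 were separate blocks here, though near-identical within each genotype and not shown to be independent. TauT-/- female 4 has no same-numbered partner, so this fit draws no genotype difference from it. Over all genes 177 were lower and 82 higher in place of 129 and 94. In 13 libraries 0 genes were lower in either version and 2 or 7 were higher, and without the 3 libraries against their sex label 0 were called either way (3115 at an unadjusted p under 0.05). *Lepr* had the fewest counts of the members, with 797 over all 15 libraries.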
